A study of Mus musculus with 16 samples.

Results

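The 10 interferon-stimulated antiviral effector genes followed in primary mouse astrocytes were Ifit1, Ifit2, Ifit3, Ifit3b, Isg15, Usp18, Rsad2, Mx1, Mx2 and Bst2. They were taken by symbol from the deposited gene table, and all 10 were found among its 16707 genes. The astrocytes were C57BL/6J wild type (WT) or lacked the mitochondrial NOD-like receptor NLRX1 (Nlrx1-/-), and they had been enriched from pup brain with beads against the astrocyte surface antigen ACSA-2. Each genotype was represented by 4 litters, and cells of each litter were left in vehicle (water) or treated for 24 h with lipopolysaccharide (LPS, 500 ng/mL) together with interferon gamma (IFNγ, 10 ng/mL). This gave 16 libraries in 4 conditions, WT vehicle, WT LPS + IFNγ, Nlrx1-/- vehicle and Nlrx1-/- LPS + IFNγ, with 1 library per litter and condition. The sample labels and methods give the pups as postnatal day 6, whereas the study's results text describes newborn pups. A litter, not a pup, is the replicate.

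Interferon-stimulated genes are held low in resting cells and are switched on when interferon receptors signal through JAK kinases. Type I interferons act mainly through the transcription factor complex ISGF3, which contains IRF9 and binds the interferon-stimulated response element (ISRE). IFNγ acts mainly through factors that bind the gamma-activated sequence (GAS), and LPS induces interferon beta through the receptor TLR4. IFIT proteins bind viral RNA, and mouse IFIT1 recognises RNA whose cap lacks a methyl mark of the host. ISG15 is a ubiquitin-like protein that is attached to other proteins, and USP18 removes it and also dampens signalling at the type I interferon receptor. RSAD2 (viperin) makes a chain-terminating nucleotide, BST2 (tetherin) holds budding virus at the cell surface, and the Mx proteins are dynamin-like GTPases. C57BL/6J mice carry Mx alleles that yield no functional protein, so the Mx values below are those of the transcripts.

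In GENCODE M39 on GRCm39, Ifit2 (34527932 to 34554524), Ifit3 (34560899 to 34566443), Ifit3b (34585328 to 34590801) and Ifit1 (34618271 to 34632174) stand in this order on the plus strand of chromosome 19, within 104 kb. Mx1 (97248235 to 97264107, minus strand) and Mx2 (97336508 to 97362100, plus strand) lie on chromosome 16. Isg15 lies on chromosome 4 (156283883 to 156285303, minus strand), Usp18 on chromosome 6 (121222848 to 121247877, plus strand), Bst2 on chromosome 8 (71986895 to 71990114, minus strand) and Rsad2 on chromosome 12 (26492745 to 26506451, minus strand).

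RefSeq promoter windows, from 250 bases before to 50 after an annotated start, were at hand for 7 of the 10 genes, Bst2, Ifit1, Ifit2, Ifit3, Ifit3b, Isg15 and Rsad2. Both strands were searched for the core letters of the ISRE, GAAANNGAA, and for the palindromic GAS letters, TTCNNNGAA. The ISRE core occurred in the windows of 6 of these 7 genes, and in 8.56% of 32851 windows of all genes. The GAS letters occurred in windows of 2 of the 7, Bst2 and Ifit2, and in 8.30% of all windows. Neither of the 2 windows of Ifit2 held the ISRE core letters, which says only that these letters are not in those bases. The 200 bases before the start of the 6 genes with a match are shown because these genes were induced together. They read 5′ to 3′ on the strand of the gene, with every ISRE core match on either strand in capitals. The letters come from the RefSeq table of GRCm38.p6, and each window matched GRCm39 exactly once, at the positions given.
Isg15 (chr4:156285276-156285475, minus strand): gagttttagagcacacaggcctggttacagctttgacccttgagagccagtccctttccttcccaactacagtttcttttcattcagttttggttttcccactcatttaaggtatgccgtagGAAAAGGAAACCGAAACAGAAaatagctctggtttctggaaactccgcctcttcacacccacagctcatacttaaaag
Bst2 (chr8:71990117-71990316, minus strand): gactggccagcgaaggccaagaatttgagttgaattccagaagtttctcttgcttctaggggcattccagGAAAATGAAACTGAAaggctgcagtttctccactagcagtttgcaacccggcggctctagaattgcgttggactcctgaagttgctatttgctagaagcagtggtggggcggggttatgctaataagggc
Rsad2 (chr12:26506452-26506651, minus strand): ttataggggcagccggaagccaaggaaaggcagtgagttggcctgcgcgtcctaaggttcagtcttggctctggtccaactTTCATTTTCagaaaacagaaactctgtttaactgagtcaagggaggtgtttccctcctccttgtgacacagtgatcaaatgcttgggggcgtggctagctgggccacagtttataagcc
Ifit1 (chr19:34618089-34618288, plus strand): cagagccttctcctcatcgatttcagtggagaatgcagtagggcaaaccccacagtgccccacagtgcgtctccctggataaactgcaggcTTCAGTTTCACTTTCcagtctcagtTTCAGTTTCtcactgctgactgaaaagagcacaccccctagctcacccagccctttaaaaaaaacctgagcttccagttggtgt
Ifit3 (chr19:34560729-34560928, plus strand): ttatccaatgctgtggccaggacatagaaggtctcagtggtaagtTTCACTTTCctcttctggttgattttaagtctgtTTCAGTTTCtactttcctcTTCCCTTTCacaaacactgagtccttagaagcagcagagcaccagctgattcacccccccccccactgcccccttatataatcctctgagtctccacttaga
Ifit3b (chr19:34585157-34585356, plus strand): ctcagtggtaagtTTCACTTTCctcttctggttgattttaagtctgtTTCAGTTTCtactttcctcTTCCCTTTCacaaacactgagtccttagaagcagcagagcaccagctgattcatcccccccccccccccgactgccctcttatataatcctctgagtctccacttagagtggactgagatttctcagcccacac

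In Isg15, 3 matches overlapped in a single run between bases -78 and -58 before the start. In Bst2, 2 matches overlapped between -130 and -116, and the GAS letters at -136 to -128 overlapped the first of them. Rsad2 had 1 match at -119 to -111. Ifit1 had 3, of which 2 overlapped. Ifit3 and its paralog Ifit3b each had 3, at the same spacing but 32 bases apart in distance from their annotated starts, and the windows of these paralogs shared an unbroken run of 169 bases.

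Salmon assigned between 27259420 and 43752903 reads to transcripts in a library. Nlrx1 was lower in every Nlrx1-/- library (1.09 to 2.96 log2 CPM) than in every WT library (4.08 to 4.44) and the gene kept some reads there. The log2 fold change of Nlrx1 was -1.70 in vehicle (SE 0.24, edgeR adjusted p = 0.0538) and -2.19 after LPS + IFNγ (SE 0.25, edgeR adjusted p = 0.00318). The 10 astrocyte markers were all in the deposited table, with a summed level of 6320 to 10848 CPM in WT and 5386 to 8417 CPM in Nlrx1-/- libraries. Of 12 microglia and macrophage markers, a cell type rich in interferon-stimulated genes, 9 were not in the deposited table, Aif1, Cx3cr1, Tmem119 and Csf1r among them, with at most 20 reads each in any library. Of those in the table, P2ry12 had 2 to 56 reads and Cd68 26 to 74 reads over the 16 libraries. Oligodendrocyte precursor markers (5 of 5 in the table) summed to 1975 to 3714 CPM. Oligodendrocyte markers (6 of 6 in the table) summed to 367 to 936 CPM in WT libraries and 194 to 801 CPM in Nlrx1-/- libraries, and within each treatment Nlrx1-/- litters 2 and 4 had the lowest sums. Their part in the results below was not tested. In bulk libraries, more RNA per cell and a larger share of responding cells cannot be told apart.

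All 10 genes rose in WT astrocytes after LPS + IFNγ. The response of a litter is its level after LPS + IFNγ minus its level in vehicle, and it was tested with edgeR across all 16062 genes that passed a filter on low counts, with litter terms and a Benjamini-Hochberg adjusted p below 0.05 as the threshold. All 10 genes passed the filter, Mx1 through its stimulated libraries only. Of all genes tested, 23.7% were called higher and 20.2% lower in WT. The median fold change over the 10 genes was 5.16 on the log2 scale, against -0.02 over all genes, and it was the same with Mx1 set to its lower bound. By litter, the median response of the 10 genes lay between 4.87 and 5.38.

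**Figure D1:**
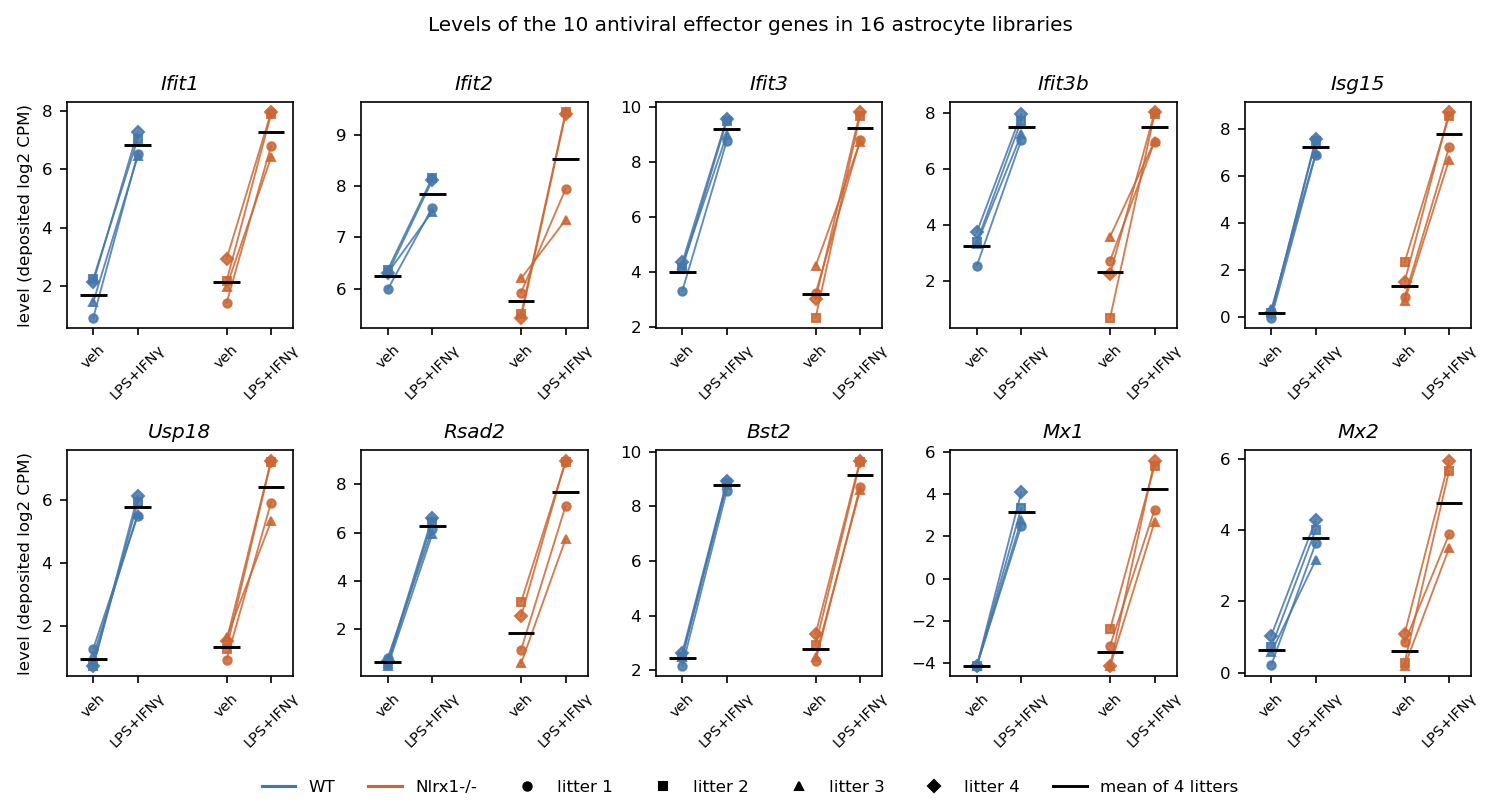
Level of each gene in the 16 libraries, as deposited log2 CPM on the vertical axis (each panel has its own range), in vehicle (veh) and after LPS + IFNγ. Lines join the libraries of a litter, blue for WT and orange for Nlrx1-/-, symbols mark the litter and black bars the mean of 4 litters. All lines rise, and after LPS + IFNγ Nlrx1-/- litters 2 and 4 lie above every WT litter in all 10 panels.

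The genes differed in how much transcript resting astrocytes held. Compared per transcript length, in TPM, WT vehicle cells had most of Ifit2 (47.1 ± 4.91 TPM, SD, n = 4), ahead of Bst2 (20.4 ± 2.65), Ifit3 (19.5 ± 5.27) and Ifit3b (11.7 ± 3.60). Bst2 overlapped with Ifit3, and Ifit3 with Ifit3b, between litters. Lower were Isg15 (4.40 ± 0.46), Ifit1 (3.14 ± 1.23), Usp18 (2.50 ± 0.51), Mx2 (1.43 ± 0.34) and Rsad2 (0.927 ± 0.105), where Ifit1 overlapped with both its neighbours and Mx2 with Rsad2. No read of Mx1 was counted. After LPS + IFNγ the order had changed. Bst2 was highest, at 1407 ± 126 TPM, followed by Ifit3 (605 ± 151) and Isg15 (548 ± 125), which overlapped with each other. Ifit2, the highest gene at rest, came after Ifit3b (123 ± 27.7 TPM) and overlapped with it (188 ± 54.1) and with Ifit1 (94.9 ± 26.8). Usp18 (64.1 ± 13.3), Rsad2 (41.7 ± 8.78), Mx2 (11.5 ± 3.71) and Mx1 (7.07 ± 3.71) closed the order, in which Usp18 overlapped with Ifit1 and Mx2 with Mx1.

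Among the IFIT genes, Ifit1 stood at 0.90, 2.23, 1.44 and 2.13 log2 CPM in vehicle in WT litters 1 to 4, and at 6.54, 7.06, 6.45 and 7.30 after LPS + IFNγ. The vehicle and stimulated libraries did not overlap, and the log2 fold change was 5.15 (SE 0.19, edgeR adjusted p = 8.37e-09). Ifit3 rose from 3.32, 4.14, 4.25 and 4.36 log2 CPM to 8.77, 9.50, 8.99 and 9.57, a log2 fold change of 5.17 (SE 0.39, edgeR adjusted p = 2.32e-06). Ifit3b rose from 2.54, 3.38, 3.32 and 3.74 log2 CPM to 7.02, 7.71, 7.22 and 7.95, a log2 fold change of 4.21 (SE 0.45, edgeR adjusted p = 3.3e-05). Ifit3 and Ifit3b are near-identical copies, so how Salmon divided reads between them is uncertain. Their log2 difference was 0.77 ± 0.12 (SD, n = 4) in WT vehicle and 1.73 ± 0.07 (SD, n = 4) after LPS + IFNγ. Counted as 1 gene, they rose by 4.89 on the log2 scale (SE 0.42, edgeR adjusted p = 7.02e-06).

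Ifit2 was the least induced of the 10 genes in WT. It stood at 5.99, 6.37, 6.31 and 6.31 log2 CPM in vehicle and at 7.57, 8.16, 7.50 and 8.11 after LPS + IFNγ, without overlap, and its log2 fold change was 1.58 (SE 0.39, edgeR adjusted p = 0.00733). As Salmon divided the reads, its transcripts did not change alike. As for Ifit3 and Ifit3b, that division is uncertain, here between transcripts of the same gene. Reads of the 3 RefSeq transcripts named Ifit2 were 83.5 ± 8.15 RPM, that is scaled to library size (SD, n = 4) in WT vehicle and 111 ± 14.6 (SD, n = 4) after LPS + IFNγ. A predicted RefSeq transcript of 3731 bases, which was assigned to Ifit2 because its values close the gap to the deposited gene level in all 16 libraries, had 0 reads in every WT vehicle library. After LPS + IFNγ it had 2305, 5783, 1499 and 4990 reads in WT litters 1 to 4, or 29.6% to 63.0% of the reads of the gene. Without this transcript the WT fold change of Ifit2 was 0.59 on the log2 scale (edgeR adjusted p = 0.000923).

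**Figure D2:**
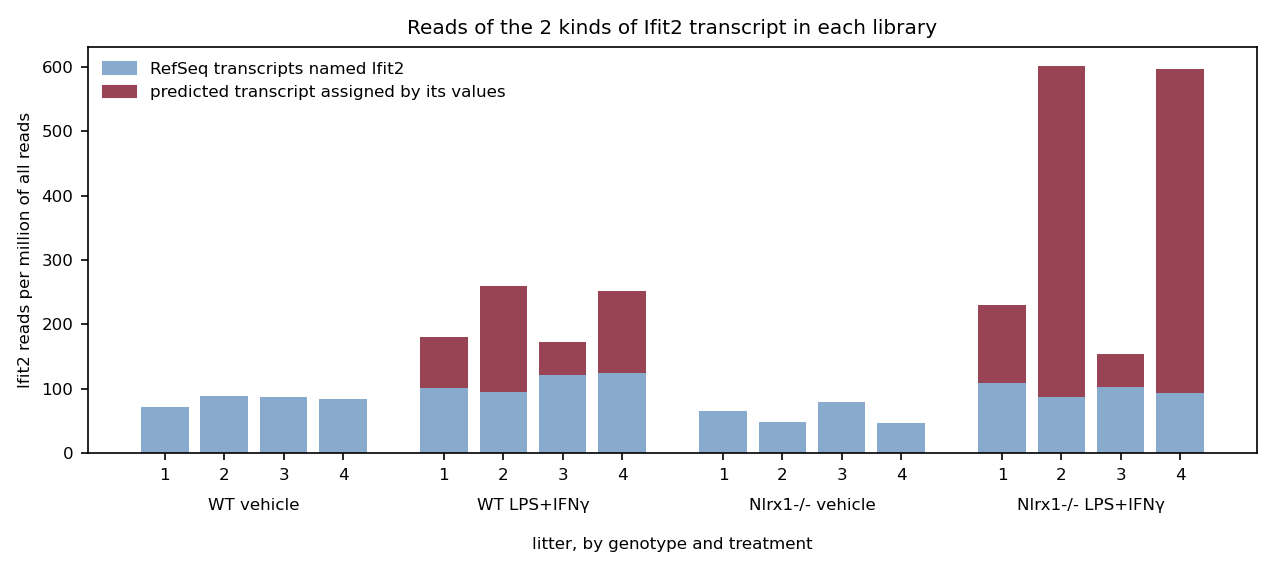
Ifit2 RPM (reads scaled to library size) in each library (vertical axis), stacked by kind of transcript, for litters 1 to 4 of each genotype and treatment. The transcript assigned by its values (dark red) has at most 18 reads in a vehicle library, and in Nlrx1-/- litters 2 and 4 it holds 85.5% and 84.4% of the Ifit2 reads after LPS + IFNγ.

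In WT, Isg15 had the largest fold change among the genes with reads in every library. It rose from -0.01, 0.18, 0.34 and 0.17 log2 CPM in WT litters 1 to 4 to 6.93, 7.51, 6.98 and 7.59, a log2 fold change of 7.13 (140-fold, SE 0.20, edgeR adjusted p = 6.95e-10). Usp18, which encodes the protease that removes ISG15, rose from 1.26, 0.71, 1.02 and 0.73 log2 CPM to 5.51, 5.94, 5.57 and 6.14. Its log2 fold change was 4.87 (29.2-fold, SE 0.34, edgeR adjusted p = 1.32e-06). The response of Bst2 varied least between litters. It stood at 2.17, 2.50, 2.50 and 2.65 log2 CPM in vehicle and at 8.56, 8.85, 8.79 and 8.91 after LPS + IFNγ. Its log2 fold change was 6.32 (79.8-fold, SE 0.09, edgeR adjusted p = 3.85e-12). Rsad2 rose from 0.82, 0.56, 0.49 and 0.68 log2 CPM to 6.13, 6.45, 5.92 and 6.61, a log2 fold change of 5.68 (51.2-fold, SE 0.18, edgeR adjusted p = 2.09e-09).

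The Mx transcripts were the scarcest after stimulation. Mx2 rose from 0.22, 0.72, 0.57 and 1.04 log2 CPM in WT litters 1 to 4 to 3.64, 4.02, 3.16 and 4.29, a log2 fold change of 3.17 (8.98-fold, SE 0.34, edgeR adjusted p = 3.61e-05). Mx1 had 0 reads in all 4 WT vehicle libraries and 157, 332, 189 and 631 reads after LPS + IFNγ. Set against a floor of 3 reads per vehicle library, these are at least 52.5-fold, 85.3-fold, 93.5-fold and 190.0-fold higher. In Nlrx1-/- astrocytes, Mx1 had 2, 5, 0 and 0 reads in vehicle and 327, 1135, 231 and 1645 after LPS + IFNγ in litters 1 to 4. Litter 1 gave a ratio of 158 (95% counting interval 43.5 to 1310.0) and litter 2 a ratio of 264 (113 to 815), whereas litters 3 and 4 were at least 71.2-fold and 599-fold higher. These intervals and floors cover counting error only.

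All 10 genes also rose in Nlrx1-/- astrocytes, where 25.3% of all genes were called higher and 24.2% lower. The median log2 fold change over the 10 genes was 5.54, against -0.03 over all genes. The responses spread further between litters than in WT, a difference in spread that was not tested. The median response of the 10 genes was 5.48, 6.09, 4.47 and 6.05 in Nlrx1-/- litters 1 to 4, so litter 3 lay below, and litters 1, 2 and 4 above, the range of the WT litters. Ifit3b responses spanned 3.40 to 7.26 log2 units in Nlrx1-/- litters and 3.90 to 4.48 in WT litters. Ifit2 responses were 2.01, 3.92, 1.13 and 3.95 in Nlrx1-/- litters 1 to 4, and 1.19 to 1.80 in WT litters. Bst2 was again the steadiest gene, with responses of 6.35, 6.68, 6.10 and 6.33 in Nlrx1-/- litters. Over the 10 genes the tested fold changes ran from 2.75 for Ifit2 (SE 0.43, edgeR adjusted p = 0.000372) to 6.51 for Isg15 (SE 0.18, edgeR adjusted p = 7.71e-10), with Mx1 left out because its vehicle libraries are at or near 0.

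**Figure D3:**
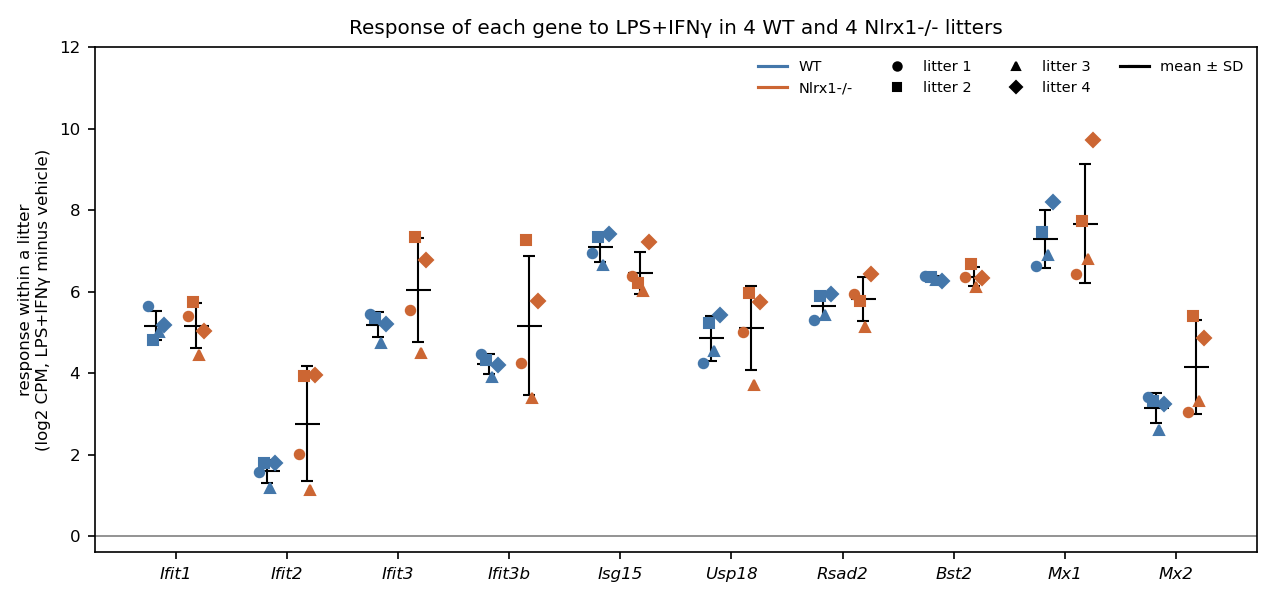
Response of each gene within a litter, as deposited log2 CPM after LPS + IFNγ minus vehicle (vertical axis), for 4 WT (blue) and 4 Nlrx1-/- (orange) litters, with mean ± SD. Mx1 responses depend on the prior count given to libraries with 0 reads. The responses of the genotypes overlap for all 10 genes, and the SD over Nlrx1-/- litters is larger than that over WT litters for each of them.

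Whether the loss of NLRX1 changed the response was tested as the difference of the responses, Nlrx1-/- minus WT, with litter terms within genotype. None of the 10 genes passed the threshold, and 0.0% of all genes were called in either direction by edgeR. At an unadjusted p below 0.05, 947 genes had a larger and 1521 a smaller response in Nlrx1-/- astrocytes, and DESeq2 called 111 and 185 genes, none of them among the 10. The difference was positive for 8 of the 10 genes and negative for Isg15 and Mx1, and the sign for Mx1 turned in limma and with recovered counts. The median was 0.26. Ifit2 differed by 1.17 (SE 0.56, edgeR adjusted p = 0.35) and Mx2 by 1.07 (SE 0.48, edgeR adjusted p = 0.324), with larger responses in Nlrx1-/- astrocytes. Without the transcript assigned by its values, the difference for Ifit2 was 0.31 (SE 0.15, edgeR adjusted p = 0.34) and its Nlrx1-/- response 0.90. Isg15 differed by -0.62 (SE 0.27, edgeR adjusted p = 0.315). Its responses were 6.38, 6.22, 6.01 and 7.21 in Nlrx1-/- litters and 6.95, 7.33, 6.64 and 7.42 in WT litters, so the litters of the genotypes overlapped. For Ifit1 and Bst2 the difference was 0.01 (SE 0.26) and 0.05 (SE 0.11).

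The levels of the genotypes were then compared within each treatment, in a fit of the 4 condition means. In vehicle, none of the 10 genes passed the threshold, and 0.0% of all genes were called higher and 0.0% lower by edgeR, with 1774 genes higher and 1376 lower at an unadjusted p below 0.05. DESeq2 called 459 genes (2.86%) higher and 278 lower, with Isg15 among the former (adjusted p = 0.0478). Isg15 was the 1 gene of the 10 whose litters did not overlap, at 0.86, 2.34, 0.70 and 1.52 log2 CPM in Nlrx1-/- litters 1 to 4 against -0.01 to 0.34 in WT litters. Of all genes in the table, 6.02% had every Nlrx1-/- litter above every WT litter in vehicle. The log2 fold change of Isg15 was 1.36 (SE 0.52, edgeR adjusted p = 0.181). Rsad2 stood at 1.16, 3.13, 0.60 and 2.54 log2 CPM in Nlrx1-/- litters against 0.49 to 0.82 in WT litters. Its litter 3 lay inside the WT range and the other litters above it, and the log2 fold change was 1.59 (SE 0.70, edgeR adjusted p = 0.228). Ifit2, Ifit3 and Ifit3b had lower means in Nlrx1-/- vehicle. Ifit3 stood at 3.24, 2.35, 4.23 and 3.03 log2 CPM against 3.32 to 4.36 in WT, a log2 fold change of -0.69 (SE 0.36, edgeR adjusted p = 0.293).

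Vehicle calls depended on Nlrx1-/- litter 3. Without it, Isg15 (1.55, SE 0.44, edgeR adjusted p = 0.0454) and Rsad2 (1.88, SE 0.50, edgeR adjusted p = 0.0369) were called higher and Ifit3 (-1.13, SE 0.31, edgeR adjusted p = 0.0428) lower in Nlrx1-/- vehicle. In that fit 3.6% of all genes were called higher and 4.39% lower. Without WT litter 1, where Ifit3 was lowest in WT vehicle, none of the 10 genes was called.

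After LPS + IFNγ, all 10 genes had a higher fitted mean in Nlrx1-/- astrocytes (Ifit2 turned to -0.18 without the transcript assigned by its values), with a median log2 fold change of 0.79 against -0.01 over all genes, and none of the 10 passed the threshold. Of all genes, 2.65% were called higher and 2.38% lower. Rsad2 came nearest, at 7.09, 8.91, 5.73 and 8.97 log2 CPM in Nlrx1-/- litters 1 to 4 against 6.13, 6.45, 5.92 and 6.61 in WT litters. Its litter 3 lay below every WT litter and the other litters above, and the log2 fold change was 1.87 (3.65-fold, SE 0.56, edgeR adjusted p = 0.0571). Mx2 stood at 3.88, 5.67, 3.50 and 5.96 log2 CPM against 3.16 to 4.29 in WT, a log2 fold change of 1.26 (SE 0.44, edgeR adjusted p = 0.0828). DESeq2 called these 2 genes higher (Rsad2 adjusted p = 0.027, Mx2 adjusted p = 0.0266), as it did 7.63% of all genes. With the litter number as an added term, edgeR also called both (Rsad2 adjusted p = 0.0347, Mx2 adjusted p = 0.0415) and 1012 of 16062 genes higher. The study describes pups of both genotypes as born on 1 day, but no label ties a litter number to a day. Usp18 differed by 0.83 (SE 0.32, edgeR adjusted p = 0.111), Ifit2 by 0.90 (SE 0.35, edgeR adjusted p = 0.113) and Isg15 by 0.74 (SE 0.37, edgeR adjusted p = 0.202). For Ifit3 and Ifit3b the means were close, with differences of 0.07 (SE 0.34) and 0.02 (SE 0.40), whose sign turned when some single litters were left out.

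The Nlrx1-/- litters fell far apart after LPS + IFNγ. In litters 2 and 4, each of the 10 genes was above every WT litter, and 33.0% and 32.8% of all genes were. In litter 1, 1 of the 10 genes was above every WT litter, as were 26.5% of all genes. In litter 3, none was above, and 7 of the 10 were below every WT litter, as were 18.4% of all genes. None of the 10 genes had all 4 Nlrx1-/- litters above all WT litters after LPS + IFNγ, a separation that 7.09% of all genes showed. In both genotypes litters 2 and 4 held the highest 2 values of every one of the 10 genes after LPS + IFNγ, although a litter number links no animals between genotypes. The share of all genes with this order is not given. Because the 10 genes ran in parallel across these litters, they do not count as 10 separate observations. The transcript of Ifit2 assigned by its values had 4360, 15916, 1928 and 18615 reads in Nlrx1-/- litters 1 to 4, whereas the named transcripts had 3914, 2698, 3897 and 3431.

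With Nlrx1-/- litter 3 left out, 6 of the 10 genes were called higher in Nlrx1-/- astrocytes after LPS + IFNγ. These were Rsad2 (2.22, SE 0.39, edgeR adjusted p = 0.00422), Usp18 (1.09, SE 0.26), Ifit2 (1.18, SE 0.28), Mx2 (1.55, SE 0.38), Isg15 (1.01, SE 0.31) and Mx1 (1.71, SE 0.52), whose adjusted p from edgeR lay at or below 0.0393. In that fit 1499 genes (9.2%) were called higher and 1834 lower over all genes. Leaving out any other single litter left 0 of the 10 called. Litter 3 is thus singled out with its values known. It lay below every WT litter in 7 of the 10 genes, so leaving it out raises the Nlrx1-/- mean of those genes. Oligodendrocyte marker sums after LPS + IFNγ were 290, 194, 445 and 201 CPM in Nlrx1-/- litters 1 to 4, so they were lowest in litters 2 and 4. Fibroblast and meningeal marker sums (5 of 5 in the table) were 15.1, 13.2, 50.1 and 19.7 CPM, highest in litter 3, against 17.4 to 30.9 CPM in WT litters. Astrocyte marker sums were 6038, 5536, 7265 and 5392 CPM in the same order, also lowest in litters 2 and 4 and highest in litter 3. The part of any of these in the levels was not tested.

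**Figure D4:**
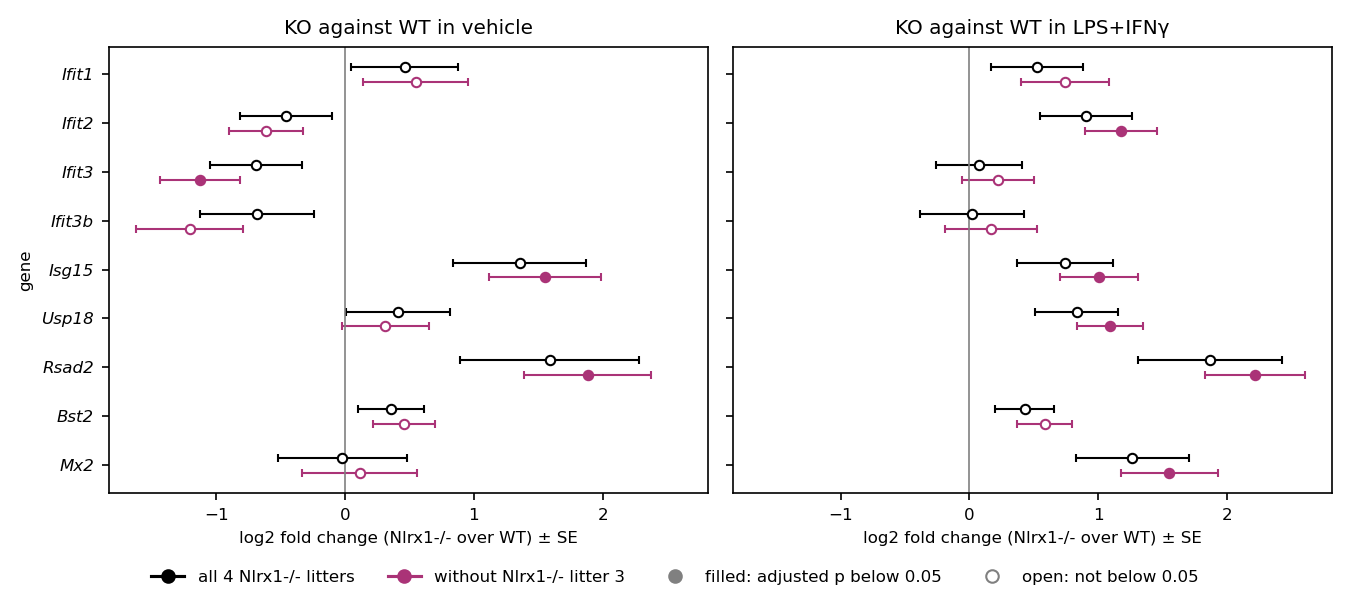
Log2 fold change of Nlrx1-/- over WT with its SE (horizontal axis, edgeR) for 9 genes in vehicle and after LPS + IFNγ, with all litters (black) and without Nlrx1-/- litter 3 (purple). KO in the panel titles stands for Nlrx1-/-, and Mx1 is not drawn because its vehicle libraries are at or near 0. Filled points passed the adjusted threshold of 0.05, and no black point did. Each litter was left out in turn, and the omission drawn here is the only one that changed calls of these genes.

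Across litters, the levels of the 10 genes ran in parallel after LPS + IFNγ and less so in vehicle. After LPS + IFNγ, levels centred within genotype had a Pearson r between 0.84 and 1.00 over the 8 libraries for all 45 pairs of genes (median 0.96, Spearman 0.90 to 1.00). Without Nlrx1-/- litters 2 and 4, the 2 libraries farthest from the median, r lay between 0.69 and 0.99 over 6 libraries. The means subtracted there still included those 2 litters, so this range is not free of them. In vehicle, 21 of 45 pairs had a positive r, with a range from -0.90 to 0.95. Mx1 had no read in 6 of the 8 vehicle libraries, and without it 19 of 36 pairs were positive, over the same range. Ifit2 and Rsad2 were the most opposed pair (Pearson -0.90, Spearman -0.95), and Ifit3 with Ifit3b the most alike (0.95 and 0.90). Isg15 with Rsad2 had a Pearson r of 0.91 and a Spearman rho of 0.67. These correlations rest on 8 libraries, 1 per litter, and are given as a description.

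**Figure D5:**
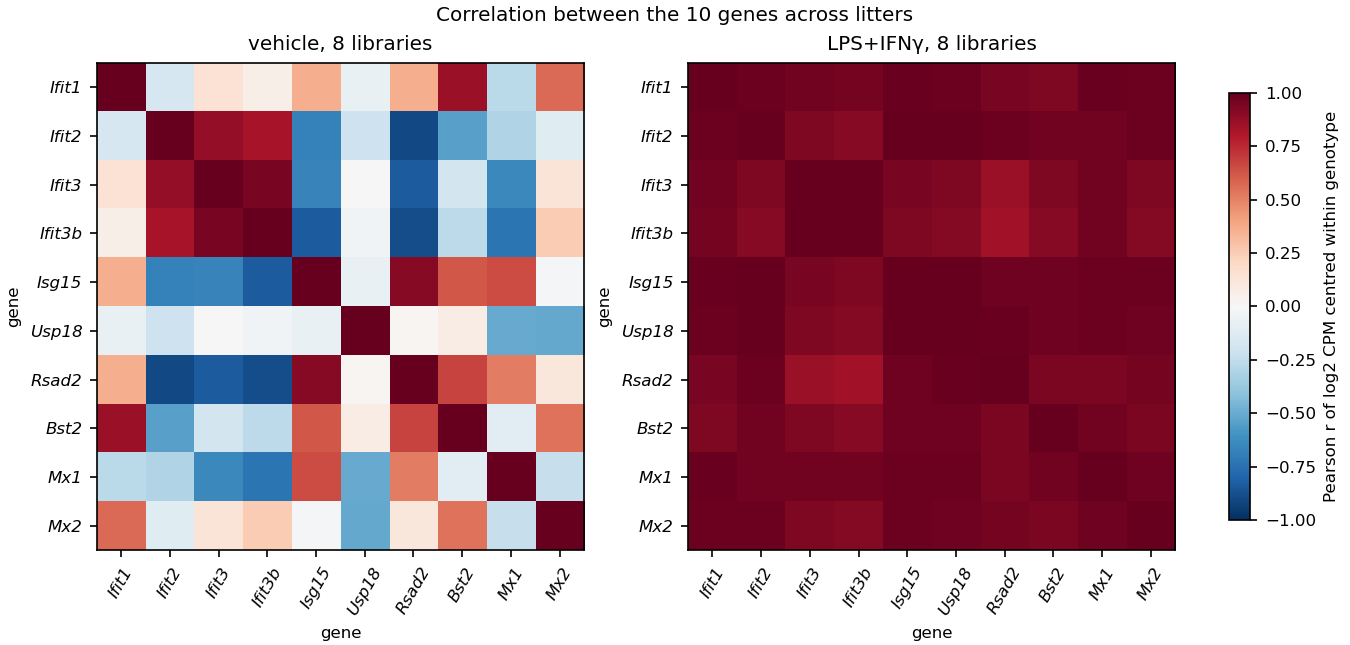
Pearson r between each pair of the 10 genes over 8 libraries in vehicle (left) and 8 after LPS + IFNγ (right), from deposited log2 CPM centred within genotype. The scale runs from -1 (blue) to 1 (red). All pairs are at or above 0.84 on the right, whereas on the left Ifit2, Ifit3 and Ifit3b run against Isg15 and Rsad2.

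Outside the 10 genes, the closest patterns over the 16 libraries were sought among 13797 genes with a mean of at least 1 CPM, by Pearson r with the mean of the 10 standardized profiles centred within condition. The nearest were Irf7 (r = 0.97), Azi2 (0.96), Ifi208 (0.96), Tor3a (0.96) and Herpud1 (0.95). Irf7, the transcription factor that amplifies type I interferon, rose by 5.59 in WT on the log2 scale (SE 0.29, edgeR adjusted p = 1.34e-07). Herpud1, a gene of the endoplasmic reticulum stress response, was at -0.19 (SE 0.16, edgeR adjusted p = 0.364) in WT and at 0.45 (SE 0.16, edgeR adjusted p = 0.0386) in Nlrx1-/- astrocytes. Of the 5, Herpud1 alone passed the test between genotypes after LPS + IFNγ, at 0.73 (SE 0.19, edgeR adjusted p = 0.0461).

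The enzymes that attach ISG15 were induced as well. Uba7 (the activating enzyme) rose by 6.78 in WT, Ube2l6 (the conjugating enzyme) by 4.79, and the ligases Herc6 and Trim25 by 3.71 and 2.29 on the log2 scale, all 4 of the tested genes of 5 in the list. In Nlrx1-/- astrocytes the same 4 rose by 7.30, 4.60, 3.84 and 2.28. None of the 4 passed the test between genotypes in either treatment, with log2 fold changes of -0.10 for Ube2l6 to 0.45 for Trim25 after LPS + IFNγ. Among ISGF3 and related interferon transcription factors, 5 of the 6 genes given here rose in both genotypes. In WT, Stat2 and Irf9 rose by 3.74 and 2.35, and Irf1, Irf7 and Irf2 by 5.80, 5.59 and 1.74 on the log2 scale. In Nlrx1-/- astrocytes the 5 rose by 4.00, 2.60, 5.59, 5.60 and 2.03 in the same order. Irf3, which is activated without new transcription, did not pass the test (-0.06, SE 0.07 in WT and 0.04, SE 0.07 in Nlrx1-/- astrocytes, edgeR adjusted p = 0.504 and 0.624). None of the 6 passed the test between genotypes, and Irf7 had the largest difference after LPS + IFNγ (1.04, SE 0.44, edgeR adjusted p = 0.138).

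Of 8 tested oligoadenylate synthetase genes, whose products sense double-stranded RNA, 7 were higher in each genotype by edgeR. Oas1g had the largest fitted WT response, which is no bound because all its WT vehicle libraries were at the lowest value of the table. By mean deposited level Oas1a, named after its values were seen, rose further (-3.45 to 5.28 log2 CPM) than Oas1g (-4.13 to 1.92). The smallest fitted response was that of Oas1c (1.56, SE 1.77, edgeR adjusted p = 0.508). Its mean deposited level, however, rose from -0.84 to 1.49 log2 CPM in WT and from -0.48 to 1.07 in Nlrx1-/- astrocytes. The transcripts summed here for Oas1c departed from that level by an SD of 0.70 log2 over 8 libraries. By limma on the deposited levels, 8 genes were higher in each genotype. Of 43 other antiviral effectors, 41 were tested and all 41 rose in both genotypes. Zbp1, a sensor of Z-form nucleic acid, had the largest WT response, from the lowest value of the table in vehicle, and Ifitm2, a membrane protein that blocks viral entry, the smallest (0.32, SE 0.09, edgeR adjusted p = 0.0167). After LPS + IFNγ, 39 of these 41 had a higher mean in Nlrx1-/- than in WT astrocytes. The median difference was 0.48, against -0.01 over all genes. In edgeR 0 of 41 passed the threshold, where 2.65% of all genes were called higher. In limma 2 of 41 did, where 735 of 16707 genes were called higher. Of the other IFIT family genes, Ifit1bl2 rose by 1.74 in WT (SE 0.51, edgeR adjusted p = 0.0189), and Ifit1bl1 was at -0.10 (SE 0.45, edgeR adjusted p = 0.884).

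Transcripts of the interferons themselves were scarce at 24 h. Of 20 type I and III interferon genes, Ifnz alone passed the filter, and it was at -0.57 (SE 1.56, edgeR adjusted p = 0.798) in WT. Ifnb1, which encodes interferon beta, had 0 reads in all 8 vehicle libraries, 2, 1, 0 and 5 reads after LPS + IFNγ in WT and 0, 9, 3 and 24 in Nlrx1-/- astrocytes, in the order of the litters. The most reads were thus in the litters 4 of both genotypes, and most counts were at or under the floor of 3 reads, so no fold change is given.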

How the data were processed

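Levels are those of the log2 CPM table the authors deposited. The authors quantified reads with Salmon 1.7.0 on RefSeq transcripts of GRCm39, summarised them with tximport, and made length-scaled, filtered CPM with TMM factors in limma-voom (limma 3.58.1), which they deposited as CPM (not used here) and as log2 CPM. The authors also deposited, per transcript, Salmon's expected counts, TPM and effective lengths. Libraries were poly-A selected and unstranded, so overlapping antisense transcripts cannot be told apart.

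To obtain gene counts, transcripts were paired with a symbol by RefSeq accession (106430 of 129698) and their expected counts added up, which covered 96.7% to 97.4% of the reads. A transcript without a pairing was added to Ifit2 because it closed the gap to the deposited level within an SD of 0.02 log2 over the libraries. Other listed genes may be counted too low where a transcript is unpaired. Counts were rounded and tested with edgeR 4.0.16 in R 4.3.3 (quasi-likelihood test with TMM factors and offsets for length), after filterByExpr with min.count 10. Responses and their difference had litter terms within genotype, as in the study's design formula, and the genotypes were compared between 4 condition means. Litters pair the libraries because the design text gives both treatments to cells of the same mice. Libraries of a litter had a correlation of 0.07 to 0.35 across genes, against medians of -0.15 to -0.02 with other litters of their genotype. Levels were centred within condition, which itself lowers the correlation between different litters, so the pairing rests on the design text. Effective lengths served as offsets and TPM only to order genes by level.

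The tests were tried first on simulated data, in which litters had no effect of their own. That trial therefore does not cover the spread between litters that the comparisons between genotypes face. Alternatives used DESeq2 1.42.0, limma 3.58.1, other scalings and filters, a stricter threshold, left-out litters, replicate blocks and a single Ifit3 gene. A pairing by accession only and counts recovered from the log2 CPM were added after seeing the data. The members, lists and motifs were chosen with earlier results of these data known. The text names all members, the tested genes of the ISG15 conjugation and ISGF3 lists, the extremes of the other lists and the 5 nearest patterns. Some listed genes are not reported here, and counts of the ISGF3 and oligoadenylate synthetase lists are over the genes that are. Tables were read with Python 3.11.15 and pandas 2.3.3.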

Additional observations from a re-analysis of the deposited data

How the results depend on the processing

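The 10 genes were called higher in both genotypes under every alternative run (as 9 genes with Ifit3 and Ifit3b joined), and the difference of the responses had 0 of them called under each. With a litter left out, the median of the 10 genes lay between 5.09 and 5.26 for the WT response, 5.25 and 5.84 for the Nlrx1-/- response, 0.07 and 0.56 for their difference, 0.13 and 0.51 between genotypes in vehicle, and 0.49 and 1.05 after LPS + IFNγ. Calls between genotypes depended on the processing. In vehicle, DESeq2 called 1 of the 10 higher, and leaving out a litter gave 0 to 2 higher and 0 to 1 lower. After LPS + IFNγ, DESeq2 called 2 higher, recovered counts 1, and leaving out a litter 0 to 6. The replicate block, with the litter number as an added term although numbers link no animals between genotypes, called 2, Rsad2 (1.45, adjusted p = 0.0347) and Mx2 (1.08, adjusted p = 0.0415). It changed no other call of the 10 genes. Same-numbered litters of the genotypes had a correlation of -0.09 to 0.18 across genes within a treatment, and 4 of 16 libraries were closest to their own number.

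Some signs turned. For the difference of the responses, Mx1, at -2.36 in edgeR, was 0.78 with recovered counts and 0.38 in limma, Ifit1 was -0.0051 in limma, and leaving out a litter gave -0.19 to 0.22 for Ifit1, -0.005 to 0.75 for Usp18 and -0.059 to 0.12 for Bst2. Between genotypes it gave -0.22 to 0.14 for Mx2 in vehicle, and -0.12 to 0.22 for Ifit3 and -0.16 to 0.21 for Ifit3b after LPS + IFNγ. Ifit2 (0.90) was -0.18 there without the transcript assigned by its values. Of the other values of single genes, 878 kept sign and call.

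Over all genes, the counts called between genotypes after LPS + IFNγ (426 higher, 383 lower) became 1225 and 1205 in DESeq2, 735 and 736 in limma, 1012 and 1191 with the replicate block, 0 and 0 with that treatment's libraries alone, 790 higher with recovered counts, 1 and 2 at an adjusted p below 0.01, and 0 to 1499 and 1 to 1834 with a litter left out. In vehicle, DESeq2 called 459 and 278, and 586 and 715 were called without Nlrx1-/- litter 3 and 117 and 36 without WT litter 1. For the difference of the responses the counts were 125 and 191 without Nlrx1-/- litter 3. WT genes called lower fell from 3239 to 2034 at an adjusted p below 0.01. The cause of these changes was not tested. With 4 litters a genotype, differences between genotypes of the size seen here come with an SE of 0.23 to 0.60 after LPS + IFNγ. That fit has no litter term and shares the spread of a gene over all conditions. Spreads were unequal, for example an SD for Rsad2 after LPS + IFNγ of 1.56 in Nlrx1-/- and 0.31 in WT litters. These SE values may therefore be too small. In vehicle, Mx1 had 0 to 5 reads in a library, at or near the floor of 3 reads.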

Other observations

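In each of the 10 genes and for levels in each condition and responses in each genotype, 60 groups of 4 litters were examined for a value far from the others (Dixon's ratio of gap to range, at its 95% limit). Mx1 in WT vehicle had 4 equal values and could not be examined. None of the other 59 groups held one, where chance gives about 1 in 20.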
